A study of Mus musculus with 4 samples.

Results

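The genes described here are Orc1, Cdc6, Mcm2, Gmnn and Wdhd1, which act in the licensing of DNA replication origins or in the step that follows it. They were taken as every probe set that the authors' deposited comparison table names as any of these 5 genes, which gave 5 probe sets, 1 per gene, of 374 in that table and of 45037 non-control probe sets on the arrays. Any further probe sets of these genes on the arrays could not be identified, so each gene is read by its listed probe set only. The authors had put probe sets into that table because the populations compared below differed on these same arrays by at least 2-fold. The differences between populations are therefore given for these genes as a description and not as a test. All 5 had higher values in ckit+ cells, by 1.00 to 1.33 on the log2 scale, and in each of them both ckit+ arrays lay above both ckit- arrays.

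The cells came from testes of mice 2 weeks old that carry the Sox2GFP reporter on a mixed 129SvJae and BL6 strain background. Reporter-positive cells were separated by an antibody against ckit, the surface receptor of the Kit ligand. This gave a Sox2GFP+ckit- population (ckit- cells) and a Sox2GFP+ckit+ population (ckit+ cells), with no treatment named in the labels. Each of the 4 arrays held RNA from 1 sort of 20 pooled testes, with 2 arrays per population labelled as biological replicates. The labels describe the ckit- cells as able to rebuild damaged testis tubules and the ckit+ cells as not able to do so. Sorted cells were defined by a reporter and a surface protein, so a population may hold more than 1 cell type.

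Before DNA can be copied, each origin has to be licensed. The origin recognition complex, whose largest subunit is the product of Orc1, binds the origin and recruits the ATPase Cdc6 and the loader Cdt1, and together they place the ring-shaped MCM helicase, of which Mcm2 is a subunit, around the DNA. Geminin, the product of Gmnn, binds Cdt1 and blocks renewed loading after S phase has begun. Wdhd1, also called AND-1, joins the helicase to DNA polymerase alpha once origins fire. In many cell types transcription of several of these genes is driven by E2F factors as cells leave G1, and spermatogonia that gain ckit are known to enter a series of dividing stages before meiosis.

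The values are RMA values, a log2 measure of probe set signal after quantile normalization, so 1 unit is a 2-fold difference in signal. Array medians ranged from 6.39 to 6.42, and the highest lower quartile of an array was 5.04, below every value of the 5 genes. Kit, whose product was sorted on, had a brighter probe set that was 2.83 ± 0.16 higher in the ckit+ arrays (limma's estimate and SE, n = 2 arrays per group), as the labels state. The other Kit probe set was 2.26 ± 0.29 higher, with less alike ckit- replicates (6.22 and 5.44). Of 38 markers listed for Sertoli, Leydig, peritubular, endothelial and blood cells, 2 were named in the deposited table, and both had higher values in ckit- cells. Plvap, an endothelial gene, had 6.77 and 6.91 on the ckit- arrays and 5.40 and 5.39 on the ckit+ arrays. Tagln, a smooth muscle and peritubular gene, had 6.81 and 6.89 on the ckit- arrays and 5.97 and 6.001 on the ckit+ arrays. The other listed markers were not analysed here, and the part of such cells in the differences below was not tested. Signal in a sorted pool does not separate more cells that hold a transcript from more transcript per cell.

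Orc1 and Cdc6, which start the assembly of the licensing complex, had the highest differences of the 5. Orc1 had values of 7.69 and 7.46 on the ckit- arrays and 8.93 and 8.85 on the ckit+ arrays. The lowest ckit+ array exceeded the highest ckit- array by 1.16, while the arrays of a population lay within 0.23 of each other. The log2 difference was 1.32 ± 0.17 (limma's estimate and SE, n = 2 per group), a 2.50-fold higher signal in ckit+ cells. Cdc6 had 8.02 and 7.81 on the ckit- arrays and 9.37 and 9.13 on the ckit+ arrays. Its populations were separated by a gap of 1.10, and replicate 1 was the higher array in both. The log2 difference was 1.33 ± 0.18, or 2.52-fold.

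Mcm2, the helicase subunit, had the tightest replicates. Its values were 8.61 and 8.55 on the ckit- arrays and 9.59 and 9.56 on the ckit+ arrays, with a pooled SD of 0.038 where the median over all probe sets was 0.17. The log2 difference was 1.00 ± 0.16, the smallest of the 5, and the fold of 2.00 fell just under 2 before rounding. The SE is larger than the replicates alone would give because limma moves each probe set's spread towards that of all probe sets.

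Gmnn, the inhibitor that limits licensing to 1 round per cycle, was also higher in the ckit+ population. It had 11.07 and 10.79 on the ckit- arrays and 12.08 and 11.92 on the ckit+ arrays. The gap between populations was 0.85, while the ckit- replicates were 0.28 apart and the ckit+ replicates 0.15. Its log2 difference was 1.07 ± 0.18, or 2.09-fold. The inhibitor and the loading factors thus had higher signal in the same population.

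Wdhd1, which acts after licensing, had 9.69 and 9.80 on the ckit- arrays and 10.95 and 10.65 on the ckit+ arrays. The gap was 0.85 and the log2 difference 1.05 ± 0.18, or 2.08-fold. Among the genes described here, Wdhd1 varied most when arrays were paired by replicate number, whose meaning the labels do not state. Its arrays numbered 1 differed by 1.26 and those numbered 2 by 0.85. For Mcm2 the same differences were 0.98 and 1.01 and for Cdc6 1.34 and 1.32. The pooled SD, which needs no such pairing, did not set Wdhd1 apart, with 0.160 against 0.161 for Cdc6.

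**Figure D1:**
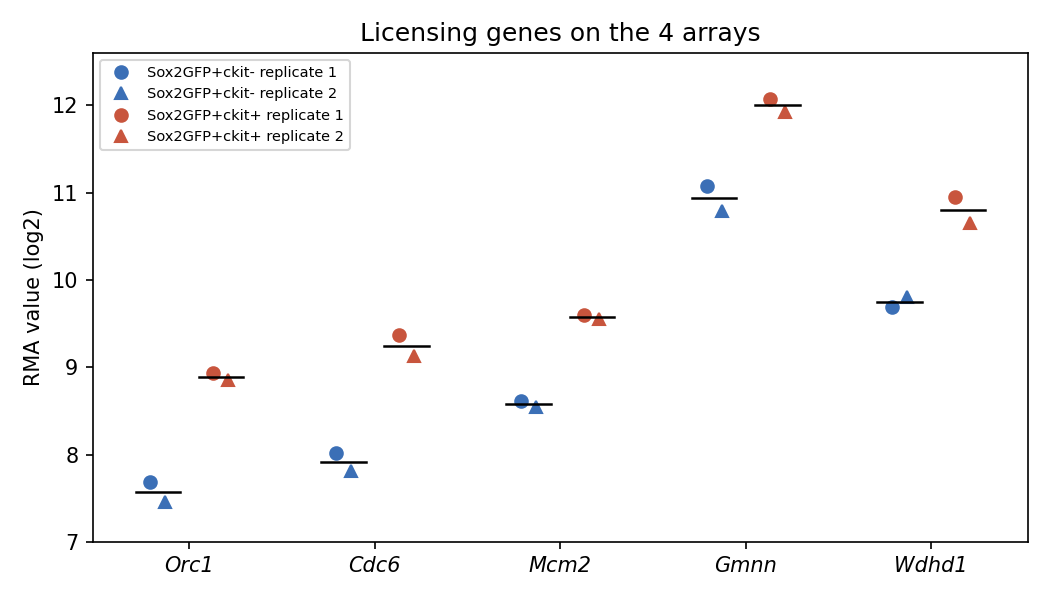
RMA values (log2, vertical axis) of the 5 genes on each of the 4 arrays, with circles for replicate 1, triangles for replicate 2 and bars for the mean of 2 arrays. In every gene both ckit+ arrays lie above both ckit- arrays, and the gap runs from 0.85 in Wdhd1 to 1.16 in Orc1.

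Ordered by their log2 difference, the genes ran from Cdc6 over Orc1, Gmnn and Wdhd1 to Mcm2. Cdc6 and Orc1 differed by 0.010, Gmnn and Wdhd1 by 0.012 and Wdhd1 and Mcm2 by 0.057, all within the SE of a single difference (0.16 to 0.18). The step from Orc1 to Gmnn was 0.25 and the whole range 0.33, so only that step exceeded an SE. Whether the genes differ from each other in their response was not tested.

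The median log2 difference of the 5 was 1.07, against -0.0046 over all 45037 probe sets. Both ckit+ arrays lay above both ckit- arrays in 5 of 5 genes, and in 24.5% of all probe sets. The ckit+ mean was at least 2-fold higher in 4 of 5 genes (all but Mcm2) and in 0.675% of all probe sets. With limma over all probe sets, 0 of the 5 passed a Benjamini-Hochberg adjusted p of 0.05 in favour of ckit+ cells, which 0.115% of all probe sets did. All 5 had an unadjusted p under 0.05 in limma, as did 8.73% of all probe sets in that direction, and 0 of 5 passed with the methods' t-test adjusted over all probe sets. By that last method 0 of all probe sets passed in favour of ckit+ cells, so its count does not set the 5 genes apart. Because the deposited table holds probe sets chosen for this very difference, none of these counts is evidence about the genes. Among the 178 probe sets of that table with higher values in ckit+ cells, ranked by RMA difference, Cdc6 stood at 68, Orc1 at 71, Gmnn at 139, Wdhd1 at 143 and Mcm2 at 157.

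**Figure D2:**
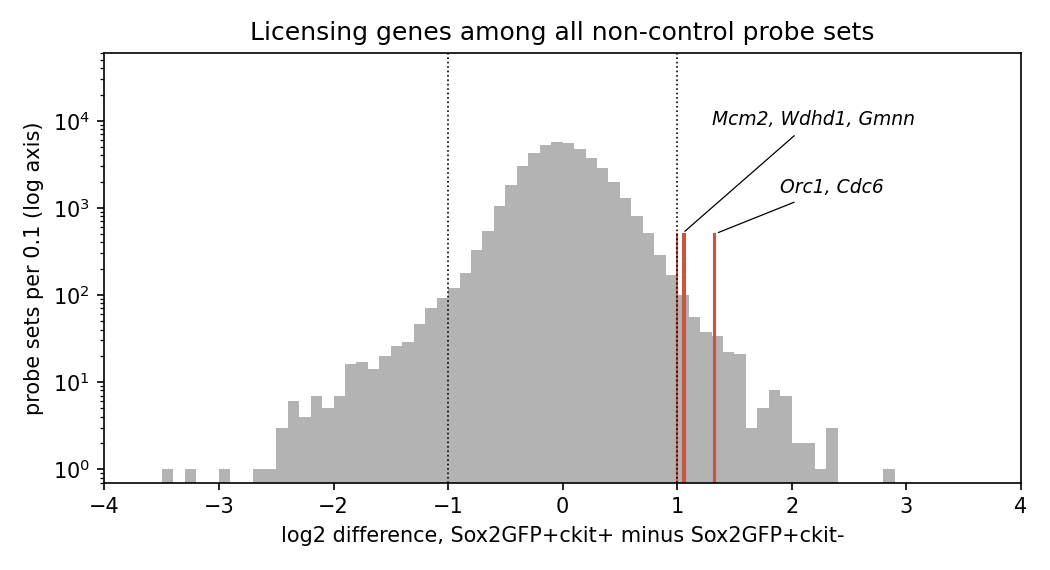
Number of probe sets (log axis) by log2 difference, ckit+ minus ckit-, for all 45037 non-control probe sets in bins of 0.1, with red lines at the 5 genes and dotted lines at a 2-fold difference. The genes fall at 1.00 to 1.33, in the upper tail but short of Kit at 2.83 by its brighter probe set and 2.26 by the other.

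The number of the 5 genes that passed changed with the fit. With the replicate number as a block 4 of 5 passed, all but Wdhd1 (0.564% of all probe sets did in this direction), with an intensity trend 5 of 5 (0.453%) and with dim probe sets left out 2 of 5, Cdc6 and Orc1 (0.372%). With any 1 array left out, 0 of the 5 and 0 of all probe sets passed, and the median of the 5 lay between 0.99 and 1.21. Renewed quantile normalization lowered all 5 differences, to 0.87 for Mcm2, 0.95 for Wdhd1, 1.02 for Gmnn, 1.22 for Cdc6 and 1.22 for Orc1. Under either other scaling only Mcm2 moved by more than its replicate SD, which was the lowest of the 5 (0.038).

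A second set of group means for the same genes stands in the authors' deposited table, whose normalization is not given in the sources used here. In the authors' deposited table the means of Mcm2 were 9.53 (ckit+) and 8.46 (ckit-), a difference of 1.07 where the RMA values gave 1.00. In the authors' deposited table the differences of the group means were 1.24 for Cdc6, 1.25 for Orc1, 1.11 for Gmnn and 1.08 for Wdhd1. Mcm2 was therefore the member closest to the 2-fold limit by both sources. The levels in the authors' deposited table were lower than the RMA means for every one of the 5 genes, by the most for Wdhd1 (-0.33 in ckit+ and -0.35 in ckit- cells). By the RMA values 156 of the 178 listed probe sets with higher values in ckit+ cells reached 2-fold, and Mcm2 (0.997) lay just below it together with Hibch (0.996) and Socs6 (0.994). Probe sets outside the deposited table carry no name here.

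Arrays were also compared by replicate number, whose meaning the labels do not state. Over all probe sets the deviations of arrays with the same number correlated at 0.26. Replicate 1 was the higher array in both populations for 4 of 5 genes, against 28.8% of all probe sets, and Wdhd1 was the exception, with -0.11 for replicate 1 minus replicate 2 in ckit- cells and 0.30 in ckit+ cells. In ckit- cells replicate 1 exceeded replicate 2 by 0.067 for Mcm2, 0.22 for Cdc6, 0.23 for Orc1 and 0.28 for Gmnn. In ckit+ cells the same differences were 0.036, 0.24, 0.084 and 0.15. These are differences between single pools and were not tested.

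The promoters of 4 of the 5 genes were found in a RefSeq promoter table (GRCm38.p6, 250 bases before to 50 after an annotated start), and those with a match to a cell cycle motif are shown because E2F sites are the textbook element of this gene class. An E2F site was searched as TTTCCCGC, TTTGGCGC, TTTCGCGC or TTTGCCGC, the CHR element, known from genes of late S phase and mitosis, as TTTGAA, and the CCAAT box as CCAAT, all on both strands. Capitals mark every match, and no matches overlapped.
Cdc6, chr11:98907901-98908200, plus strand: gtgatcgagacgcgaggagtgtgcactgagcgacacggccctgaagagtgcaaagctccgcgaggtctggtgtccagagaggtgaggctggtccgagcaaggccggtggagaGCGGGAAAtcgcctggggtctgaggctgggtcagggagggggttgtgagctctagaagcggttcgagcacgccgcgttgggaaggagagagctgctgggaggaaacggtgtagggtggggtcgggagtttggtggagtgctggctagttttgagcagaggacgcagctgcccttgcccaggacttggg
Orc1, chr4:108579204-108579503, plus strand: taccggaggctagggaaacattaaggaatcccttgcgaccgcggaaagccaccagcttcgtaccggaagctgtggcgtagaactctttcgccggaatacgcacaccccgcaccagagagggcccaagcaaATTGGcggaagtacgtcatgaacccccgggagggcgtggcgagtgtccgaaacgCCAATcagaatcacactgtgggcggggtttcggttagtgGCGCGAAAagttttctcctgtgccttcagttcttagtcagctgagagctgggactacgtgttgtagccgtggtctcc
Mcm2, chr6:88898731-88899030, minus strand: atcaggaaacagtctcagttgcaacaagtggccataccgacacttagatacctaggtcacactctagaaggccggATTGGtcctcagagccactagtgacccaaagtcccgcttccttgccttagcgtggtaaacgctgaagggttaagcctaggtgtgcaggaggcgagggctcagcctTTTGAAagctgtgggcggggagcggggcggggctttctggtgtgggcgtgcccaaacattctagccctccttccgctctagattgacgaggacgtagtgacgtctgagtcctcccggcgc

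Cdc6 and Orc1 each held 1 E2F match, and Mcm2 and Wdhd1 held none of these spellings. Only exact spellings were counted, so a site that differs by 1 letter was not. Whether a match goes with the size of the difference was not tested. The match in Cdc6 was TTTCCCGC on the minus strand at -138 to -131 from the annotated start. That in Orc1 was TTTCGCGC on the minus strand at -27 to -20. Of all 32817 promoter windows 2.26% held an E2F match. Mcm2 held a CHR match at -70 to -65, as did 17.9% of all windows, and 1 CCAAT box. Orc1 held 2 CCAAT boxes, and 37.4% of all windows held at least 1. Wdhd1 (chr14:47276808-47277107, minus strand) had no match to any of the motifs, in a window of 74.3% GC, against 63.3% for Cdc6, 57.3% for Orc1 and for Mcm2 and a median of 52.7%. A match is a run of letters and not a measured binding site. The windows of Cdc6 and Orc1 lie inside the annotated gene spans, which begin at 98907709 on chromosome 11 and at 108575705 on chromosome 4, so each gene has a further start that was not searched here.

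Of 19 genes listed for the pre-replicative complex and its control, 4 were named in the deposited table, and these were Orc1, Cdc6, Mcm2 and Gmnn. Of 16 listed for origin firing and replisome assembly, 1 was named, Wdhd1. The remaining origin recognition, MCM, GINS and Cdc45 genes and Cdt1 were not analysed here, and nothing follows about their levels. Of all 135 genes in 6 lists of replication and cell cycle genes 11 were named, and the 6 outside the members also had higher values in ckit+ cells. Each of them had been selected by the authors for differing on these arrays, so their direction is no independent evidence.

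For DNA synthesis and nucleotide supply, 2 of 31 were named. In limma over all probe sets 1 of them passed, as did 0.115% of all probe sets towards ckit+ cells. Fen1, the flap endonuclease that trims Okazaki fragments, had 6.63 and 6.45 on the ckit- arrays and 7.96 and 7.92 on the ckit+ arrays. Its log2 difference was 1.40 ± 0.16 (limma's adjusted p = 0.043), close to that of Orc1. Rrm2, the regulated subunit of ribonucleotide reductase, had 8.33 and 8.20 against 9.31 and 9.37 by its brighter probe set, a difference of 1.07 ± 0.16, and 1.12 ± 0.18 by the other. Neither passed (limma's adjusted p = 0.069 and 0.079).

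For the S-phase checkpoint and repair, 3 of 19 were named and 0 passed in limma (0.115% of all probe sets did, towards ckit+ cells). All 3 had an unadjusted p under 0.05 in limma, as did 8.73% of all probe sets in that direction. Chek1, the checkpoint kinase that acts on stalled forks, had a log2 difference of 1.39 ± 0.20. Esco2, which acetylates cohesin during S phase, had 1.25 ± 0.17, and Dscc1, a subunit of an alternative clamp loader, had 1.19 ± 0.20. Of 27 genes listed for E2F, cyclins and CDK inhibitors only E2f7, a repressor of E2F targets, was named, with values of 6.72 and 6.65 on the ckit- arrays and 7.68 and 7.32 on the ckit+ arrays. Its difference of 0.82 ± 0.19 missed the threshold (limma's adjusted p = 0.15). For G2 and mitosis 0 of 23 were named. A pair of probe sets is described in the deposited table only as cyclin B, without the gene's number, and they had differences of 1.05 ± 0.17 and 1.06 ± 0.18 towards ckit+ cells.

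**Figure D3:**
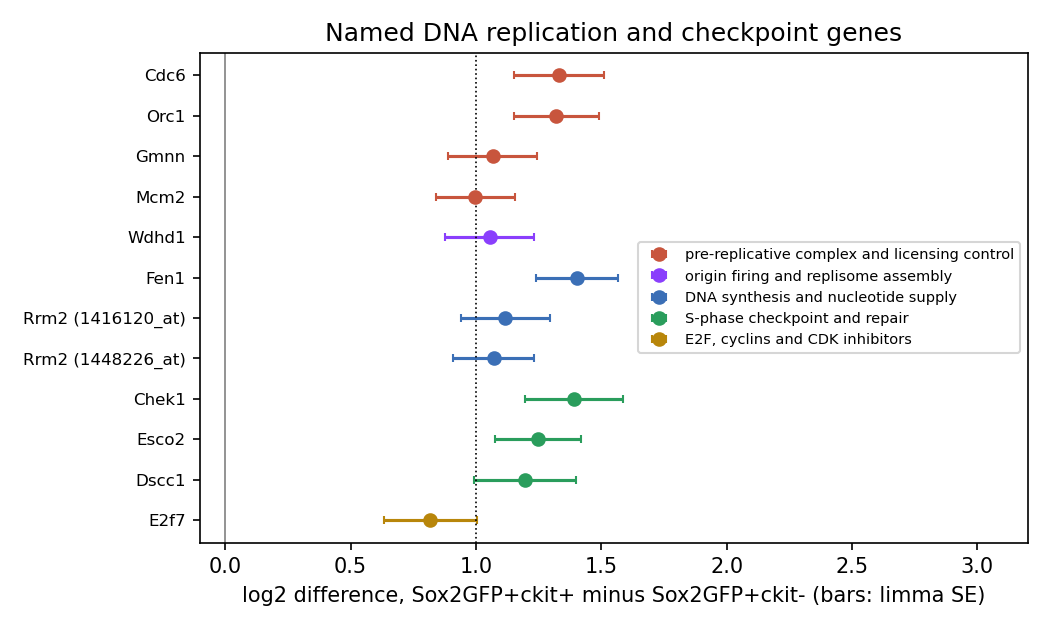
Log2 difference, ckit+ minus ckit- (horizontal axis, bars are limma's SE, n = 2 arrays per group), of every probe set named for the replication and checkpoint lists, coloured by list, with a dotted line at 2-fold. The values run from 1.00 in Mcm2 over Wdhd1, Gmnn, Rrm2, Dscc1 (1.19), Esco2 (1.25), Orc1, Cdc6 and Chek1 to 1.40 in Fen1, and E2f7 lies lower at 0.82.

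Likeness of pattern was measured as the Euclidean distance between profiles over the 4 arrays, on the log2 scale with each probe set centred on its mean, and the 3 closest of 184 other named genes were taken for each member. Cdc6 lay closest to Fkbp9, a peptidyl-prolyl isomerase (0.090), then to Chek1 (0.098) and Esco2 (0.11). For Orc1 they were the parathyroid hormone receptor gene Pth1r (0.086), Fen1 (0.097) and Clip1, which encodes a microtubule-binding protein (0.11). Wdhd1 lay closest to Rrm2 (0.077), followed by Socs6, a suppressor of cytokine signalling (0.080), and the DNA methyltransferase gene Dnmt3b (0.11).

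Mcm2 was closest to Anp32a, which encodes a nuclear phosphoprotein (0.034), and then to Hibch, which encodes an enzyme of valine breakdown (0.046). Gmnn was closest to the actin nucleator gene Cobl (0.071), the transcription factor gene Sox11 (0.073) and Msl1 (0.093). Of the 15 neighbours taken 4 stood in the replication and cell cycle lists, namely Chek1, Esco2, Fen1 and Rrm2, where the lists held 6 of the 184 candidates. All candidates had been selected by the authors for a difference on these arrays, and 101 of them were higher in the ckit+ population, as the members are, including all 6 from the lists. Among the 5 members, Cdc6 and Orc1 were the closest pair (0.11) and Orc1 and Wdhd1 the most distant (0.39). A centred profile over 4 arrays holds only the difference between the populations and the difference within each, and these genes had been selected for the first.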

How the data were processed

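Gene expression was measured on 4 one-colour arrays, 2 per sorted population, from 5 ng of total RNA per sample and 20000 to 90000 cells, per the labels' protocols. The deposited log2 values had been made by the authors with RMA, per the submitters' processing notes, whose version is not given in the sources used here. A second deposited table gave, from the authors, the mean and standard error of each group (log2), a ratio, and p-values of a t-test, per the file headers. Its ratio (fold) and p-value columns, made by the authors, were not read.

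Differences, ckit+ minus ckit-, were fitted with limma 3.58.1 (R 4.3.3) on the deposited log2 values of 45037 non-control probe sets (64 controls left out), without covariates or a filter, two-sided, with Benjamini-Hochberg adjustment and a threshold of 0.05. The fit was tested on simulated data. Errors are SEs from limma. The number of arrays limits the precision. P-values in limma rest only on how far 2 pools of a population varied, for the probe set itself and for all probe sets. The latter enter because limma moves each spread towards that of all.

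Names came from the second table: 214 of its 374 probe sets (189 genes) were named by RefSeq accession, symbol or full name, using a RefSeq gene table of GRCm38.p6. The brightest probe set stands for a gene in list counts. The members and lists were chosen with earlier results of these data known. Named in the text are the 5 members, Kit, up to 3 genes per replication list and 3 profile neighbours per member, of which 1 is not reported here; the cyclin B probe sets and the somatic markers were added to these. Alternatives were the replicate number as a block, an intensity trend, renewed quantile normalization, median centring, a filter on dim probe sets, the methods' t-test and each array left out.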

Additional observations from a re-analysis of the deposited data

How the results depend on the processing

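Over all 45037 probe sets limma called 139 in either direction, and 554 when a replicate block was added or 419 when an intensity trend was used. The methods' t-test called 1 (5346 at an unadjusted p under 0.05) and limma 0 with any 1 array left out (4513 to 6422 at an unadjusted p under 0.05); the lone array is then assumed to vary like the other group. Renewed quantile normalization, median centring and the dim filter gave 133, 142 and 199. The 5 genes had been selected by the authors for this difference, so their counts are a description. Of the 5 genes limma called 0, where 0.115% of all probe sets passed in favour of ckit+ cells. With the replicate block limma called 4 (adjusted p from 0.024 to 0.052), where 0.564% of all did. With the trend limma called 5 (0.017 to 0.035), where 0.453% did. With the dim filter limma called 2 (0.044 to 0.068), where 0.372% of those kept did. It called 0 with each array left out in turn. Deviations of the arrays with the same number correlated at 0.26 across probe sets. What a number stands for is not in the labels, so the block remains an alternative. The median log2 difference of the 5 genes was 1.07 and ranged from 0.99 to 1.21 with 1 array left out; renewed quantile normalization gave 1.02 and median centring 1.08. None of these alternatives turned the direction of any of the 5 genes. Leaving 1 array out could not do so, since both ckit+ arrays lay above both ckit- arrays. The block, trend, dim filter and t-test left the differences themselves unchanged. What made the counts differ between these settings was not tested.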
